A study of Mus musculus with 12 samples.

Results

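The integrin and laminin chains were followed in RNA sequencing of 12 mammary tumors from 9 mice. Members were taken by gene symbol, as the rows whose symbol has the form of an integrin alpha or beta chain or of a laminin alpha, beta or gamma chain. The rule found 36 of 47593 genes, with 17 integrin alpha chains, 9 integrin beta chains and 10 laminin chains. All mice were female MADM-mutant animals of mixed background without treatment, labelled as carrying the MADM RG;GR alleles. MADM (mosaic analysis with double markers) uses a pair of split reporter cassettes, the TG and GT alleles on chromosome 11, and recombination between them leaves rare cells homozygous for the mutations among heterozygous cells. The Brca1 flox and p53 KO alleles lay on the TG chromosome, and MMTV-Cre, which is active mainly in mammary epithelium, drove recombination. Every tumor is of this 1 condition and no normal gland was analysed here. In 7 mice 1 tumor was taken, tumors 3 and 4 came from 1 mouse and tumors 10, 11 and 12 from another.

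Integrins are receptors made of 1 alpha and 1 beta chain that hold cells to extracellular matrix or to other cells. Laminins are trimers of an alpha, a beta and a gamma chain and form the sheet of the basement membrane on which mammary epithelium rests. In the gland, the integrin made of Itga6 and Itgb4 anchors epithelial cells in hemidesmosomes to the laminin that holds Lama3 and Lamb3, whereas Itgb1 with several alpha chains serves nearly all cell types and Itgb2 with its alpha chains serves leukocytes.

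Levels are TPM, in which reads are divided by transcript length and each tumor is scaled to the same total (column sums of 999770 to 999909 here), so genes can be set side by side within a tumor. TPM keeps no read number, so the depth of a tumor is unknown and no counting interval is given. Between 21415 and 23443 genes were above 0, fewest in tumor 2. Differences and SDs refer to log2(TPM + 1) after tumors of 1 mouse were averaged (n = 9 mice). In bulk tissue, fewer cells of a type and less RNA per cell cannot be told apart.

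The tissue label was checked on marker genes, and 2 tumors stood apart. The 7 epithelial markers were junction genes and the keratins Krt8 and Krt18. Their median was 0.262 TPM in tumor 2 and 3.00 TPM in tumor 8, against 320 to 597 TPM in the other 10 tumors. Epcam, an epithelial adhesion protein, was listed at 0 in tumor 2 and at 2.03 TPM in tumor 8. In tumor 2, 5 B lymphocyte genes reached a median of 609 TPM, whereas the other tumors had at most 40.3 TPM, the level of tumor 9. Tumor 8 kept 128 TPM of the luminal keratin Krt8, which is among the 7 genes. It had medians of 333 TPM over 8 fibroblast genes, below the 442 TPM of tumor 4, and 433 TPM over 8 macrophage genes, the highest. Results are therefore given with and without tumors 2 and 8 where these change them, and the part of these cell types in the results was not tested.

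Of the 36 chains, 33 had a mean over mice of 1 TPM or more, 22 had a mean of 10 TPM or more, and 18 reached 1 TPM in every tumor. Itgb1, the shared beta chain, had the highest mean at 482 ± 287 TPM (SD, n = 9 mice), and the hemidesmosome chain Itgb4 had 149 ± 99.2 TPM. The mean levels of Itgb4, Itga3 (142 ± 119 TPM), Itga6 (139 ± 80.0 TPM) and Itgb5 (136 ± 70.6 TPM) lay closer to each other than their SDs, so their order was not resolved. Over mice, the median SD of the 33 chains was 1.31 on the log2 scale, against 0.57 over the 16802 genes with a mean of 1 TPM or more. Itgb4 (2.50), Lama3 (2.36), Lamb3 (2.19) and Lama5 (2.16) had high SDs of log2 levels. With tumors 2 and 8 left out (n = 7 mice) these SDs were 0.47, 1.25, 0.76 and 1.06, and the medians were 0.76 over the chains and 0.46 over all genes. All 4 are epithelial chains by the textbook assignment used here, in which 9 chains are epithelial, 5 broad, 13 stromal or vascular and 9 leukocyte or platelet.

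Tumor 2 had the lowest level of 25 of these 33 chains (75.8%), against 31.2% of the 16802 genes, with ties counted for the tumor of lower number. In 17 of the 33 (51.5%) tumor 2 lay under 10% of the median of the other tumors, as did 14.3% of all genes. Among the 9 epithelial chains, 8 fell under that limit, and Itga6 lay at 15.3%. Exceptions were found among integrin alpha chains. Itga1, a collagen receptor, was highest in tumor 2 at 13.5 TPM, and Itga5, the fibronectin receptor chain, and Itga4, a chain of circulating leukocytes, lay at 206% and 138% of the median of the other tumors. Itga9, a tenascin receptor chain, lay at 133%. Tumor 8 had the highest level of 8 of the 33 chains (24.2%, against 12.0% of all genes), none of them epithelial.

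**Figure D1:**
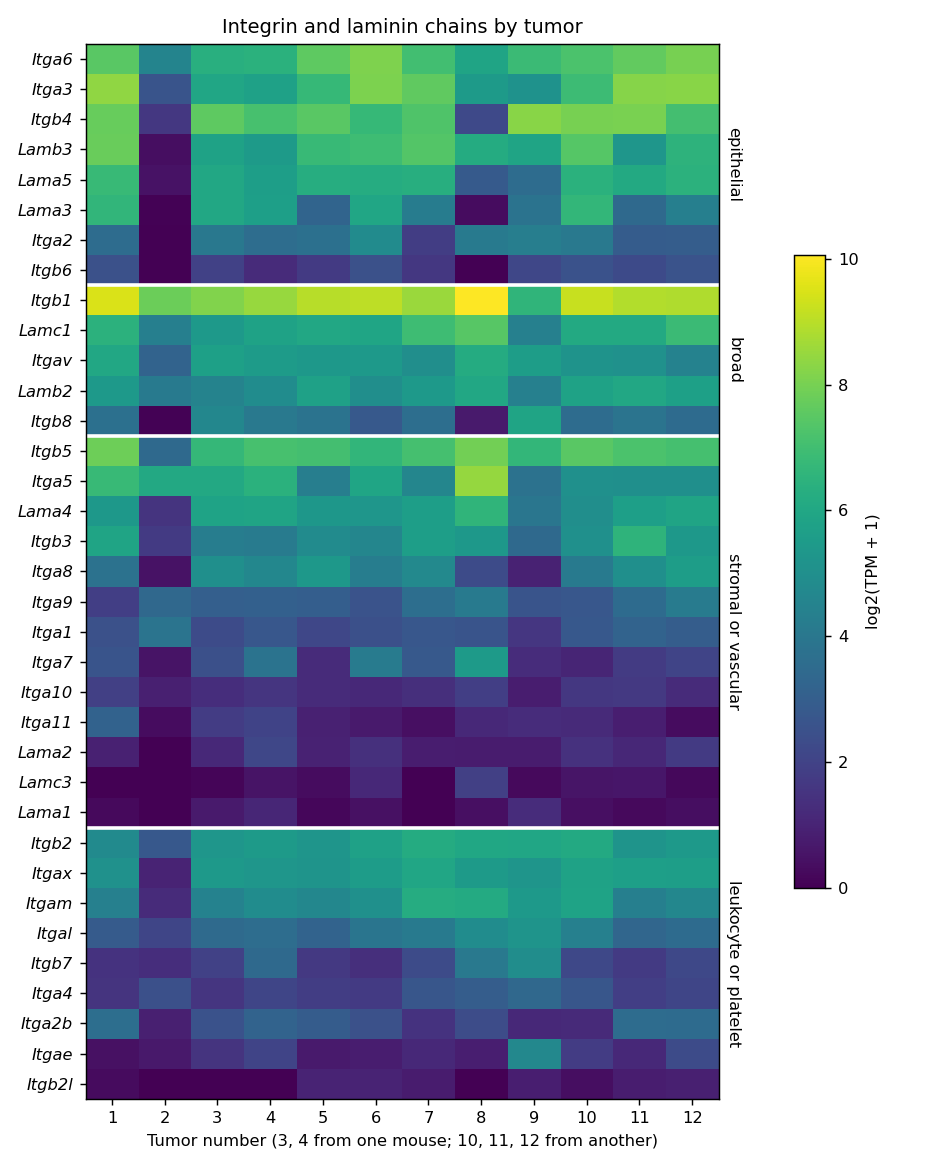
Level of the chains described in the 12 tumors as color on a log2(TPM + 1) scale, with rows grouped by the cell type in which the chain is best known and tumors in number order. The epithelial rows are at their darkest in tumor 2, Itgb6 equally so in tumor 8, and Itgb4 and Lama3 are dark in tumor 8 as well, while Itgb1 and Itga5 are brightest in tumor 8.

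Promoter sequences are shown for 4 chains that carry the contrasts described next: 2 laminin chains that are near 0 in tumor 2 but differ in tumor 8 (Lama5 low, Lamb3 not), the laminin receptor chain Itga3, and the macrophage chain Itgam. RefSeq windows of 300 bases, 250 before and 50 after an annotated start on GRCm38.p6, were matched for 23 of the 36 members (26 windows). Each is printed 5′ to 3′ on the strand of the gene, and capitals mark matches on either strand to 4 motifs: the GC box GGGCGG, the E-box CAGGTG, the AP-1 motif TGANTCA and the PU.1 motif GAGGAAG. The windows lie at chr2:180225810-180226109 (minus strand) for Lama5, chr1:193301993-193302292 (plus strand, the more downstream of 2 windows) for Lamb3, chr11:95076665-95076964 (minus strand, the upstream of 2 windows) for Itga3 and chr7:128062390-128062689 (plus strand) for Itgam.
Lama5: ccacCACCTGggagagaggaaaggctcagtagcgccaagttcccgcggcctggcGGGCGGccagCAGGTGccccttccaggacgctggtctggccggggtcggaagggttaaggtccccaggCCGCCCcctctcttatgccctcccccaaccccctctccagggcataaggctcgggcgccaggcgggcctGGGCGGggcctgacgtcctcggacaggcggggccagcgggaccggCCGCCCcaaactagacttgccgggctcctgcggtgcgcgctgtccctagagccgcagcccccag
Lamb3: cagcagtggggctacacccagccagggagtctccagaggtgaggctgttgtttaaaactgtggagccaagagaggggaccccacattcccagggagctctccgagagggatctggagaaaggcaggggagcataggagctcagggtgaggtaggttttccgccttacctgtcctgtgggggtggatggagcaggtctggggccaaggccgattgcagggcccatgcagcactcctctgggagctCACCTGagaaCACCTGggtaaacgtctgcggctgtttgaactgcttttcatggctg
Itga3: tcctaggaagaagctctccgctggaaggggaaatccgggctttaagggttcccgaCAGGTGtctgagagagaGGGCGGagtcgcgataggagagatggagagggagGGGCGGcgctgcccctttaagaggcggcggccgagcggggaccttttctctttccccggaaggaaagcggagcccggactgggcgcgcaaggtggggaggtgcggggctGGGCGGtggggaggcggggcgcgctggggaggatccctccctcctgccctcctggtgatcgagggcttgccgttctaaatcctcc
Itgam: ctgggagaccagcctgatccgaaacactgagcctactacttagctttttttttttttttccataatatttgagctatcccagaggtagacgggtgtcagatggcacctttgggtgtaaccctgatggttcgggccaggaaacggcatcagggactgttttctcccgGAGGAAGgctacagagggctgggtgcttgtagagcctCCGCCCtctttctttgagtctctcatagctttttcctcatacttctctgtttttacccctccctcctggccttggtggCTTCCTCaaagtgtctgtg
The Lama5 window held 4 GC boxes and 2 E-boxes, the Lamb3 window 2 E-boxes, the Itga3 window 3 GC boxes and 1 E-box, and the Itgam window 1 GC box and 2 PU.1 motifs. Over the members' windows, the GC box was found in 11 of 26 (35.6% of all 32817 windows held it), the E-box in 8 (20.2% of all), the PU.1 motif in 9 (13.6% of all) and the AP-1 motif in 3 (7.81% of all). These matches describe letters, not binding, and no motif is contained in another.

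The epithelial laminin chains Lama3 and Lamb3, which occur together in the hemidesmosome ligand, were abundant in most tumors and listed below 0.35 TPM in tumor 2. Lamb3 (chr1:193207699-193343878, plus strand), a beta chain, ranged from 0.307 TPM in tumor 2 through a median of 81.2 TPM to 217 TPM in tumor 1. Lama3, an alpha chain, ranged from 0.0400 TPM in tumor 2 through 18.6 TPM to 101 TPM in tumor 10. The chains parted in tumor 8, where Lama3 was 0.256 TPM and Lamb3 72.0 TPM. Lamb3 in tumor 8 was thus within the 37.9 to 217 TPM of the tumors other than 2 and 8, whereas Lama3 lay below its own values in all of those tumors.

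Lama5 (chr2:180176373-180225859, minus strand), the alpha chain of most adult basement membranes, ranged from 0.408 TPM in tumor 2 through 71.0 TPM to 109 TPM in tumor 1. It was also low in tumor 8 (6.23 TPM) and tumor 9 (10.9 TPM), below the 48.8 to 109 TPM of the other 9 tumors. Lama5 lay above Lama3 by 1.08 ± 1.22 on the log2 scale, with the same sign in 7 of 9 mice (exact permutation by sign flips over mice, two-sided p = 0.0234, adjusted p = 0.0562 over the 12 pairs of chains compared), so the difference did not pass 0.05 after adjustment. In tumor 9 Lama3 (13.1 TPM) and Lama5 were close, while in tumor 5 Lama5 was 75.7 TPM and Lama3 8.54 TPM.

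Lama4, the alpha chain of vascular and mesenchymal basement membranes, went the other way from Lama5 in tumor 8. Its levels ran from 1.82 TPM in tumor 2 through a median of 44.8 TPM to 95.5 TPM in tumor 8. Lama5 and Lama4 did not differ detectably over mice (−0.04 ± 1.58 log2, Lama5 higher in 5 of 9, exact two-sided sign-flip permutation p = 0.969). With tumors 2 and 8 left out, Lama5 was 0.63 ± 0.61 above Lama4 (n = 7 mice, exact permutation p = 0.0625, adjusted p = 0.107). Lama2, the muscle and nerve alpha chain, stayed between 0 and 3.38 TPM, and Lama1, an embryonic alpha chain, had a mean of 0.407 TPM and ranged from 0 to 1.44 TPM.

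The broadly made partners Lamb2 and Lamc1, beta and gamma chains of many laminins, were at 39.4% and 28.6% of the median of the other tumors in tumor 2, where Lamb3 was at 0.339%. Lamb2 ran from 16.8 TPM in tumor 2 through a median of 42.3 TPM to 65.3 TPM in tumor 8, and Lamc1 (chr1:153218922-153332786, minus strand) from 19.4 TPM in tumor 2 through 66.1 TPM to 174 TPM in tumor 8. Over 9 mice Lamb3 against Lamb2 did not pass the test (0.73 ± 1.83 log2, Lamb3 higher in 8 of 9, exact two-sided sign-flip permutation p = 0.262, adjusted p = 0.449). It did when tumors 2 and 8 were left out, with Lamb3 above Lamb2 by 1.46 ± 0.65 in 7 of 7 mice (exact permutation p = 0.0156, the smallest that 7 mice allow, adjusted p = 0.0375). Lamc3, a gamma chain known from nervous tissue, had a mean of 0.565 TPM, was listed at 0 in 3 tumors and reached 2.70 TPM in tumor 8.

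**Figure D2:**
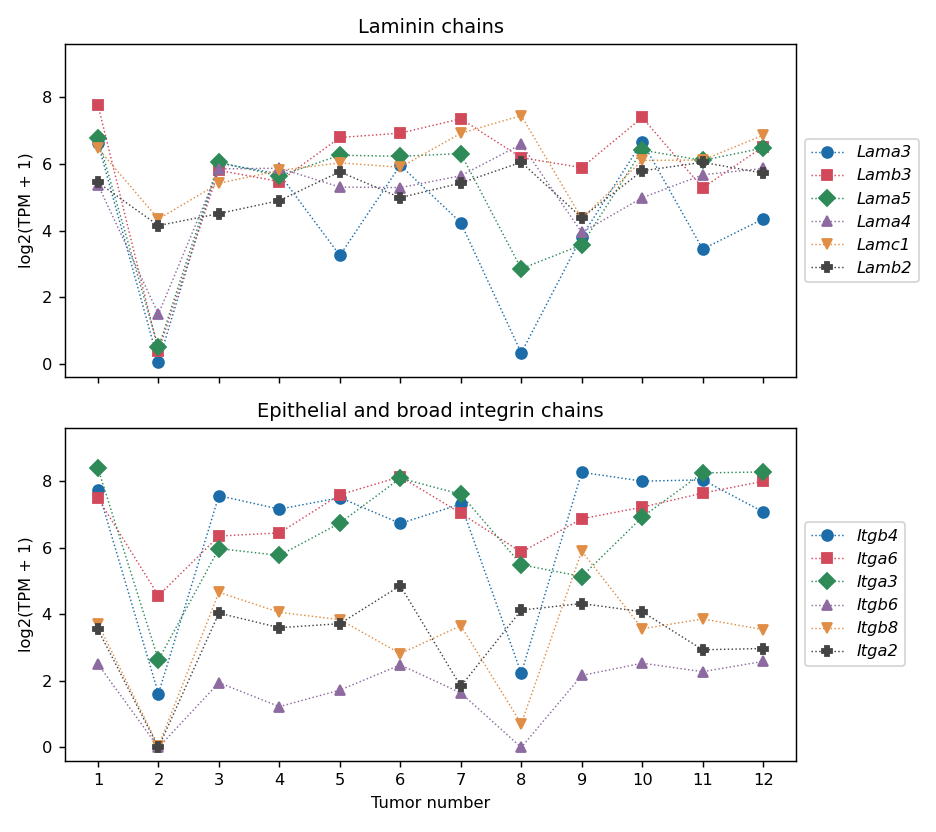
log2(TPM + 1) of 6 laminin chains (upper panel) and 6 integrin chains (lower panel) in tumors 1 to 12, with dotted lines that only join the points of 1 gene. Lama3, Lama5 and Lamb3 lie near 0 in tumor 2, whereas in tumor 8 Lama3 is near 0, Lama5 is low and Lamb3 does not stand out.

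Among laminin receptors, the hemidesmosome chain Itgb4 (chr11:115974709-116008412, plus strand) was the most sharply split between tumors. Its values of 2.06 TPM in tumor 2 and 3.68 TPM in tumor 8 were far below the median of 168 TPM and the other 10 tumors, which ran from 105 TPM (tumor 6) to 305 TPM (tumor 9). Its partner Itga6 (chr2:71745616-71858416, plus strand), which also pairs with Itgb1, fell less in the same tumors, to 22.5 TPM in tumor 2 and 57.1 TPM in tumor 8, against a median of 138 TPM and a highest value of 278 TPM in tumor 6. Itga3 (chr11:95044474-95076801, minus strand), which binds the same laminins with Itgb1, ranged from 5.17 TPM in tumor 2 through 112 TPM to 331 TPM in tumor 1, and its 43.8 TPM in tumor 8 was above the 34.0 TPM of tumor 9. Against the median of tumors 1, 3 to 7 and 10 to 12, tumor 8 had 0.0205 times the level of Itgb4, 0.227 times that of Itga3 and 0.323 times that of Itga6.

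Itgb1 (chr8:128685654-128733200, plus strand) had a different profile, with a median of 466.1 TPM, 1068 TPM in tumor 8 as its highest value, 221 TPM in tumor 2 and a lowest value of 96.2 TPM in tumor 9, where Itgb4 was highest. Itgb1 exceeded Itgb4 in 8 of 9 mice, by 2.38 ± 2.88 log2 on average (exact two-sided sign-flip permutation p = 0.0234, adjusted p = 0.0562), with single mice between −1.65 in tumor 9 and 7.84 in tumor 8. Without tumors 2 and 8 the difference was 1.06 ± 1.27 (n = 7 mice, adjusted exact permutation p = 0.125). Itga6 and Itga3 differed by 0.42 ± 0.96 log2, Itga6 higher in 6 of 9 mice (exact permutation p = 0.234, adjusted p = 0.449; 0.23 without tumor 2 and 0.21 without tumors 2 and 8), and Itgb4 and Itga6 by −0.57 ± 1.73, Itgb4 higher in 5 of 9 (p = 0.375, adjusted p = 0.469). Neither pair was separated beyond the spread between mice, and the sign of Itgb4 against Itga6 turned to 0.21 ± 0.88 without tumors 2 and 8. Itga7, the laminin receptor chain of muscle and vessel wall, was highest in tumor 8 at 43.7 TPM, with 17.3 TPM in tumor 6 as the next value and 0.429 TPM in tumor 2. Skeletal muscle markers had medians of 48.0 and 35.9 TPM in tumors 3 and 4, where Itga7 was 4.52 and 13.4 TPM, and their part in its level was not tested.

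Of the 4 collagen receptor chains, Itga2, the epithelial and platelet chain, was the most abundant. It was listed at 0 in tumor 2, had a median of 11.6 TPM and reached 27.9 TPM in tumor 6, and its 16.4 TPM in tumor 8 lay inside the range of the others. Among the epithelial integrin chains, Itga2 thus differed from Itgb4 and Itgb6, which were low in both tumors. Itga1, the chain of mesenchymal and endothelial cells, had a median of 5.33 TPM, with tumor 9 (1.99 TPM) and tumor 2 (13.5 TPM) as its extremes. Itga2 minus Itga1 was 0.69 ± 2.01 log2, positive in 7 of 9 mice (exact two-sided permutation p = 0.324, adjusted p = 0.469). It was 1.26 ± 1.14 without tumor 2 (n = 8 mice, exact permutation p = 0.0234, adjusted p = 0.0562) and 1.22 ± 1.23 without tumors 2 and 8 (n = 7 mice, p = 0.0469, adjusted p = 0.0938). The remaining chains, Itga10 of cartilage (0.740 to 2.71 TPM) and Itga11 of fibroblasts (0.263 to 8.05 TPM), were low in most tumors.

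The receptors for fibronectin, vitronectin and latent TGF-beta made up a further 10 chains. Itgav (chr2:83724397-83806916, plus strand), the alpha chain shared by several beta chains, had 8.21 TPM in tumor 2 and 21.2 to 71.9 TPM elsewhere, with a median of 40.7 TPM. Its beta partners were found at very different levels. Itgb5, which forms a vitronectin receptor, had between 96.6 and 244 TPM outside tumor 2, 9.88 TPM in tumor 2 and a median of 135 TPM. Itgb3, the chain of vessels, osteoclasts and platelets, had a median of 30.1 TPM and ranged from 2.28 TPM in tumor 2 to 91.2 TPM in tumor 11. Itgb6 and Itgb8, both of which activate latent TGF-beta, were lower, and Itgb8 was the more abundant of the pair.

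Itgb6, an epithelial chain, was listed at 0 in 2 tumors (2 and 8), and the other 10 had 1.34 to 4.99 TPM (median of all 12, 3.16 TPM). Itgb8, found in epithelium, nerve and some leukocytes, had a median of 11.9 TPM, dropped to 0.0281 TPM in tumor 2 and 0.637 TPM in tumor 8, reached 58.3 TPM in tumor 9 and ran from 6.03 to 24.2 TPM in the remaining 9. Itgb6 lay below Itgb8 in 9 of 9 mice, by −1.57 ± 1.20 log2 (exact two-sided sign-flip permutation p = 0.0039, the smallest that 9 mice allow, adjusted p = 0.0234). On leaving out tumors 2 and 8 the difference was −1.91 ± 1.12 in 7 of 7 mice (adjusted exact permutation p = 0.0375).

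Itga5 (chr15:103344286-103366763, minus strand), the main fibronectin receptor chain, was the chain with the highest ratio of tumor 8 to the median of the tumors other than 2, 8 and 9, at 10.9-fold. It ranged from 12.9 TPM in tumor 9 through a median of 45.3 TPM to 350 TPM in tumor 8, and its 65.8 TPM in tumor 2 was not low. Tumor 8 had a median of 333 TPM over the fibroblast markers, below the 442 TPM of tumor 4, where Itga5 was 84.1 TPM. The macrophage marker median was highest in tumor 8, at 433 TPM. Itga5 was not called in the fits on either list described below, and the part of these cells in the Itga5 level was not tested. Itgav and Itga5 differed by −0.43 ± 1.47 log2, Itgav higher in 3 of 9 mice (exact two-sided permutation p = 0.391, adjusted p = 0.469), and the sign turned to 0.18 ± 0.95 without tumors 2 and 8.

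Itga8, a chain of smooth muscle and other mesenchymal cells, ranged from 0.423 TPM in tumor 2 through 21.3 TPM to 47.5 TPM in tumor 12 and was also low in tumor 9 (0.970 TPM) and tumor 8 (3.98 TPM). Its level in tumor 8 was at 0.153 of the median of the 9 tumors other than 2, 8 and 9, so it did not share the high values of Itga5 and Itga7 there. Itga9 ranged from 2.66 to 17.2 TPM. Itga4, which pairs with Itgb1 and Itgb7 on leukocytes, ranged from 1.85 to 9.62 TPM, highest in tumor 9. Itga2b, a chain known from platelets, ranged from 0.839 TPM to 11.5 TPM in tumor 1. The median of 4 platelet markers was 0.327 TPM in tumor 1 and highest in tumor 10 (2.34 TPM), where Itga2b was 1.32 TPM. The cell type behind the Itga2b level was not tested.

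**Figure D3:**
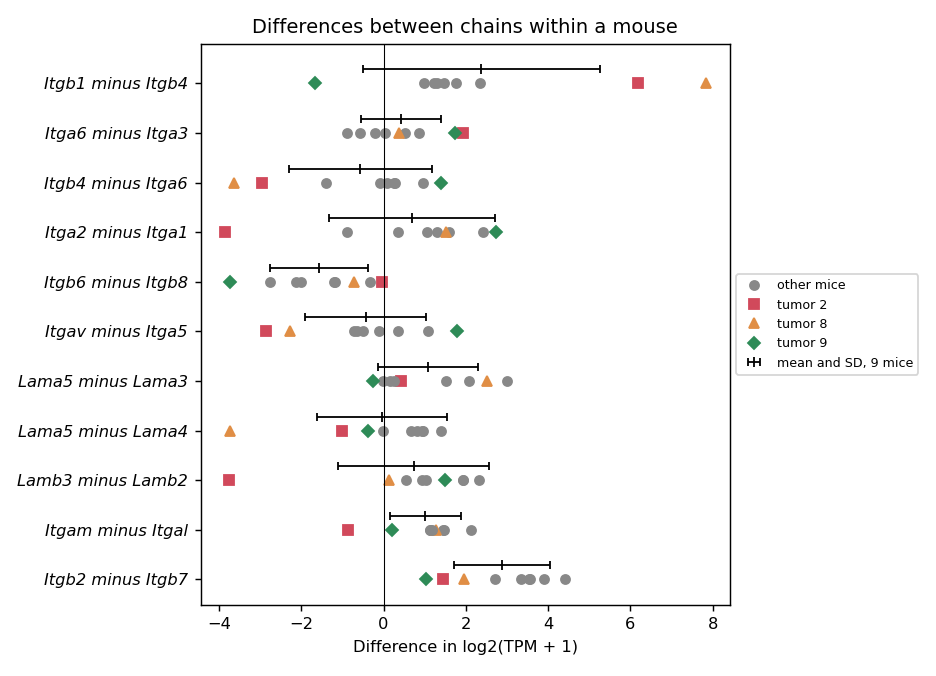
Difference in log2(TPM + 1) between the 2 chains of each pair described, 1 point per mouse, with the mean and SD over 9 mice drawn above each row and tumors 2, 8 and 9 marked. Itgb6 lies below Itgb8 and Itgb2 above Itgb7 in every mouse, while tumors 2 and 8 have the highest values for Itgb1 minus Itgb4.

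Most leukocyte integrins were listed above 0 in all tumors. Itgb2 (the beta chain shared by leukocytes), Itgax and Itgam had the highest means. These were 45.5 ± 20.6, 38.85 ± 16.6 and 35.7 ± 23.5 TPM (SD, n = 9 mice), an order that was not resolved. Itgb2 (chr10:77530252-77565708, plus strand) ranged from 5.87 TPM in tumor 2 through a median of 42.8 TPM to 72.6 TPM in tumor 7. Itgax, a chain of dendritic cells and tissue macrophages, ranged from 0.992 TPM in tumor 2 through 42.5 TPM to 61.1 TPM in tumor 7, and outside tumor 2 it stayed between 32.8 and 61.1 TPM. Itgam (chr7:128062640-128118491, plus strand), the chain of macrophages and neutrophils whose promoter is printed above, ranged from 1.38 TPM in tumor 2 through 26.5 TPM to 73.9 TPM in tumor 7, followed by tumor 8 with 70.5 TPM. In tumor 2 these myeloid chains were low together with the macrophage markers (median 51.8 TPM, against 153 to 433 TPM in the others), in a tumor with a high median of the B lymphocyte genes.

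Itgal, the chain that lymphocytes carry with Itgb2, ranged from 3.34 TPM in tumor 2 through 10.9 TPM to 36.0 TPM in tumor 9. Itgam exceeded Itgal in 8 of 9 mice, by 1.01 ± 0.86 log2 (exact two-sided sign-flip permutation p = 0.0117, adjusted p = 0.0469), with tumor 2 as the mouse in which Itgal was higher. The call was lost with a pseudocount of 0.1 (1.03 ± 0.99, adjusted exact permutation p = 0.0656) and on leaving out any 1 of 7 mice, where the difference was at least 0.87. Itgb2 exceeded Itgb7, the beta chain of gut-homing lymphocytes, in 9 of 9 mice by 2.88 ± 1.16 log2 (exact permutation p = 0.0039, adjusted p = 0.0234).

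Tumor 9 was set apart by lymphocyte chains. Itgae, which with Itgb7 forms the receptor for E-cadherin on intraepithelial lymphocytes, stood at 24.7 TPM in tumor 9, against 0.386 to 3.88 TPM elsewhere. Itgb7 reached 29.4 TPM in tumor 9, then 15.7 TPM in tumor 8 and 9.86 TPM in tumor 4, with 1.52 to 3.90 TPM elsewhere and a median of 3.18 TPM. The median over 6 T lymphocyte markers was highest in the same tumor. It was 14.6 TPM in tumor 9, 7.13 TPM in tumor 8 and 0.311 to 3.47 TPM in the others. Among the 6 genes Cd4 was the exception, with 41.6 TPM in tumor 8 and 14.2 TPM in tumor 9. The part of T lymphocytes in the levels of Itgae and Itgb7 was not tested. The median of the B lymphocyte genes in tumor 9 was also above that of the tumors other than tumor 2, and in tumor 2, where this median was highest, Itgae was 0.594 TPM and Itgb7 1.52 TPM. Itgb2l, a chain related to Itgb2 and reported from neutrophils, was listed at 0 in 4 tumors and reached 1.01 TPM.

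**Figure D4:**
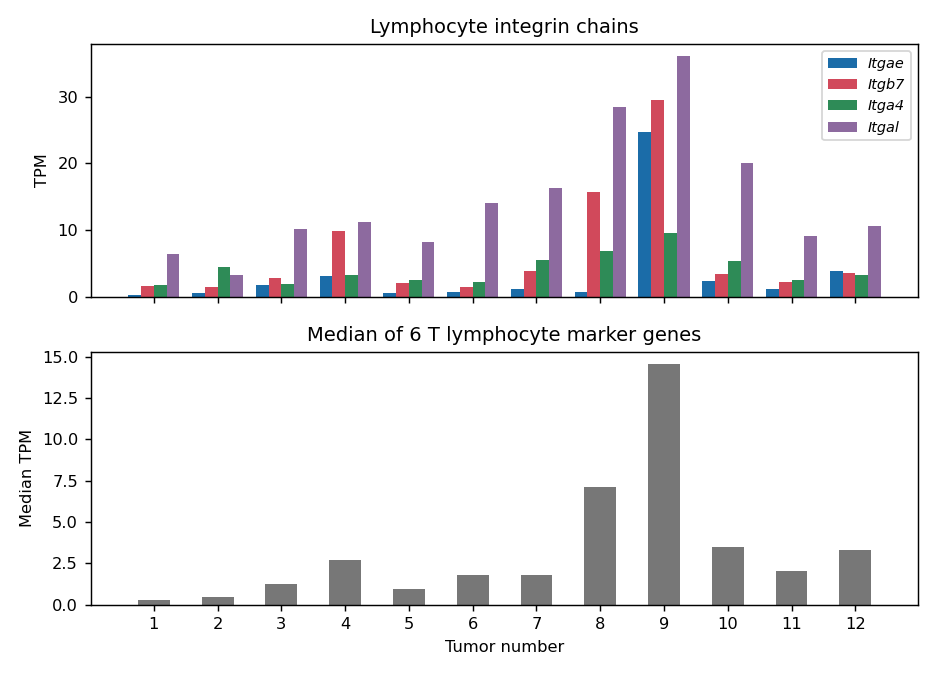
Upper panel, TPM of the lymphocyte chains Itgae, Itgb7, Itga4 and Itgal in tumors 1 to 12. Lower panel, median TPM of 6 T lymphocyte marker genes in the same tumors. Both panels have their highest values in tumor 9, followed for Itgb7, Itgal, Itga4 and the markers by tumor 8.

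Tumor 9 also held the highest Itgb4 and Itgb8 and the lowest Itgb1, Itga5, Itga1 and Itga10. Over the 33 chains 6 (18.2%) were highest in tumor 9, near the 14.2% of all genes, and 4 (12.1%) were lowest there, against 20.7%.

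Tumors of 1 mouse could be compared in 2 animals. Between tumors 3 and 4 the median difference over the 33 chains was 0.36 log2, against 0.19 over all 16802 genes, and 2 chains (6.06%), Itgb7 and Lama2, differed by more than their SD over mice, against 9.92% of all genes. Among tumors 10, 11 and 12 the median range was 0.86 log2 (0.49 over all genes), and 9 chains (27.3%, against 40.9% of all genes) exceeded 1 SD over mice. Lama3 had the widest range there, from 9.88 TPM in tumor 11 and 19.4 TPM in tumor 12 to 101 TPM in tumor 10, a 10.2-fold difference. Itga2b ranged 8.11-fold and Lamb3 4.41-fold among these 3 tumors, whereas Lama5 ranged 1.30-fold and Itgb1 1.30-fold. The SDs over mice behind these shares include tumors 2 and 8. Their median was 1.31 over the chains and 0.57 over all genes, and 0.76 and 0.46 without tumors 2 and 8. Shares against SDs without these tumors were not computed. The lower shares of the chains are therefore not read as smaller differences within a mouse.

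Levels of the chains were then set against markers of stromal cells, endothelium and macrophages over the 9 mice. A slope gives the change in a chain's log2 level per unit of the median log2 level of the marker list, from limma fits over all genes with a mean of 1 TPM or more. With macrophage markers 5 of the 33 chains rose at an adjusted p under 0.05 and 0 fell, where 3.18% of 16794 genes rose and 1.16% fell. The 5 were Itgam (slope 1.73 ± 0.15 SE, limma adjusted p = 0.00297), Itgb2 (1.18 ± 0.17, adjusted p = 0.0120), Itgax (1.62 ± 0.29, adjusted p = 0.0217), Itgb5 (1.42 ± 0.25, adjusted p = 0.0228) and Lama4 (1.53 ± 0.31, adjusted p = 0.0329). Itgam, Itgb2 and Itgax are myeloid chains, whereas Itgb5 and Lama4 are stromal or vascular chains by the assignment used here. The median slope was 0.87 over the 33 chains and 0.06 over all genes, but over the chains it was 0.26 without tumor 2 and −0.32 without tumors 2 and 8.

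All 5 calls rested on tumor 2, which had the lowest macrophage marker level. Without it 0 of 33 chains and 0 of 16794 genes passed the limma test (at an unadjusted p under 0.05, 6 chains and 868 genes rose and 5 chains and 763 genes fell), and the slopes were 1.42 for Itgam (adjusted p = 0.192), 0.74 for Itgb2 (0.468), 0.26 for Itgax (0.855), 0.48 for Itgb5 (0.796) and 0.63 for Lama4 (0.819). With both of tumors 2 and 8 left out, Itgam had a slope of 1.87, Itgb2 one of 1.19 and Itgax one of 0.62, whereas Lama4 turned to −0.47 and Itgb5 to −0.17, none of them called. On macrophage markers the mouse of tumor 2 was lowest (5.72 log2) and that of tumor 8 highest (8.73). The same held for fibroblast markers (3.31 and 8.36) and endothelial markers (1.84 and 5.04). The marker lists thus share their extreme mice, and which cell type a chain follows was not tested.

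**Figure D5:**
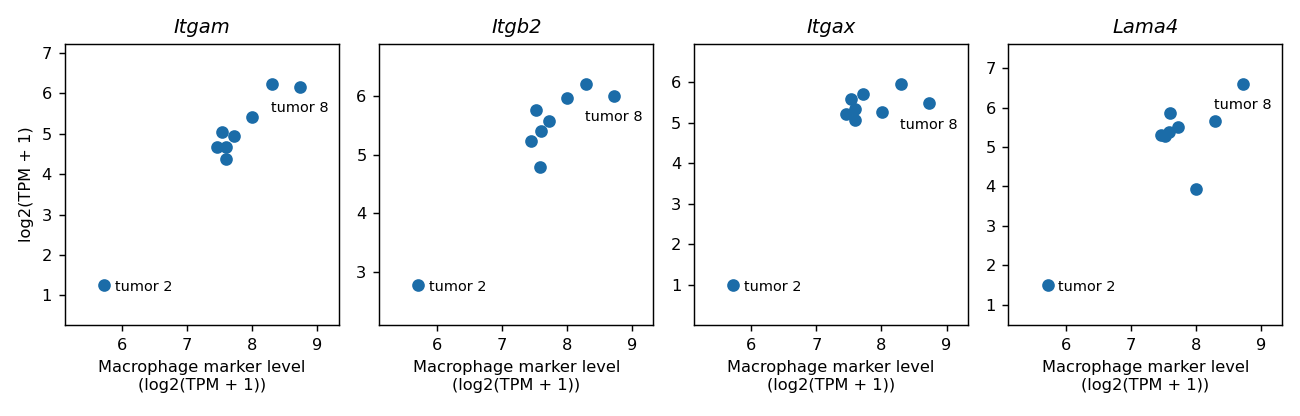
log2(TPM + 1) of Itgam, Itgb2, Itgax and Lama4 against the median log2(TPM + 1) of 8 macrophage marker genes, 1 point per mouse (9 mice), tumors 2 and 8 named. Tumor 2 lies far to the lower left in all panels, and among the other 8 mice the slope is 1.42 for Itgam and 0.26 for Itgax.

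With fibroblast markers 0 of the 33 chains passed limma's adjusted test in either direction (5 rose and 0 fell at an unadjusted p under 0.05), where 0.113% of 16794 genes rose and 0 fell (at an unadjusted p under 0.05, 1542 genes rose and 743 fell). At an unadjusted p under 0.05 without tumor 2, 1 chain and 709 genes rose and 1 chain and 450 genes fell. Without tumors 2 and 8, 0 chains and 600 genes rose and 1 chain and 214 genes fell. Among the 5 chains that rose with all mice included, Lama4 was the steepest, at 0.75 ± 0.20 (limma adjusted p = 0.226). With endothelial markers 0 of 33 chains and 0 of 16795 genes passed (at an unadjusted p under 0.05, 9 chains and 1456 genes rose and 0 chains and 525 genes fell), with Itga7 at 1.44 ± 0.30 (adjusted p = 0.296) and Lama4 at 1.19 ± 0.34 (adjusted p = 0.328). At the same unadjusted limit without tumor 2, 4 chains and 636 genes rose and 2 chains and 492 genes fell. Without tumors 2 and 8, 0 chains and 236 genes rose and 1 chain and 170 genes fell.

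Genes that work with these chains were read from the same fits. Of 36 adaptors, hemidesmosome proteins, basement membrane partners, further laminin receptors and integrin ligands, 35 were tested, and with macrophage markers 5 rose and 0 fell, where 3.18% of all genes rose and 1.16% fell. The kinase Src, which signals below integrins, rose by 2.17 ± 0.37 per unit (limma adjusted p = 0.0181), and the nidogens Nid1 (1.36 ± 0.33, adjusted p = 0.0481) and Nid2 (0.97 ± 0.20, adjusted p = 0.0323), which link laminin to collagen IV, rose too. Pxn (0.76 ± 0.17) and Tln1 (0.64 ± 0.15), adaptors at focal adhesions, were the other two. The median slope of the 35 was 0.69, against 0.06 over all genes, with tumor 2 included. This median was not computed without tumor 2. The slopes of the hemidesmosome proteins Plec (1.03, adjusted p = 0.0853), Cd151 (0.80, adjusted p = 0.119), Col17a1 (0.57, adjusted p = 0.191) and Dst (0.41, adjusted p = 0.587) did not pass. With fibroblast and with endothelial markers 0 of the 35 passed in either direction, and without tumor 2 no gene passed with macrophage markers.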

How the data were processed

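RNA of 12 mammary tumors from 9 mice was sequenced from stranded mRNA libraries. Paired-end reads were trimmed by the authors and aligned with HISAT2 to GRCm38, then quantified with StringTie (version 2.1.6 in the submitters' processing notes), and the deposited values are TPM per Ensembl gene, with no pooling of tumors. TPM is relative to all transcripts of a tumor, so very abundant genes lower all others, and no count model was used because depth is unknown. How transcripts were summed per gene is not given in the sources used here.

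From these values log2(TPM + 1) was computed and tumors of 1 mouse were averaged (n = 9 mice). The numbers in the labels name tumors and pair nothing. Pairs of chains were tested with exact two-sided sign-flip permutation tests over mice, with Benjamini-Hochberg adjustment over 12 pairs. Slopes on the median level of fibroblast, endothelial and macrophage marker lists were fitted with limma (3.58.1, with a mean-variance trend, R 4.3.3) over all genes with a mean of 1 TPM or more except the markers, adjusted over all genes tested and called under 0.05. No slope on epithelial markers was fitted, since the mice form separate clusters on them. Both tests were checked on simulated data. The members, gene lists, pairs and tests were chosen with earlier results of these data known. Of the members reported, lowest, median and highest values are given for members with a mean of 10 TPM or more, members of a pair and members called, and ranges for the others. Of the 36 related genes, at most the 3 steepest called in each direction were to be named, and Pxn, Tln1 and the hemidesmosome proteins were added after their values were seen. Some items are counted in totals over the chains and pairs but not reported here, and a further chain was left out throughout.

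Other marker lists (basal and myoepithelial, neutrophil, platelet, smooth muscle and pericyte) had medians over the tumors of 0 to 13.3, 0.856 to 187, 0.277 to 2.34 and 7.50 to 37.3 TPM. Alternatives were a pseudocount of 0.1, no filter and a filter of 5 TPM, TPM rescaled without mitochondrial genes, the mean of a marker list, each tumor as a unit, leaving out tumors 2 and 8, leaving out each mouse and, chosen after seeing the data, leaving out the 2 mice farthest from the median marker level, and SDs over mice without tumors 2 and 8. Gene locations came from GENCODE vM21 and promoter windows from RefSeq, both on GRCm38. Python 3.11.15 was used with scipy 1.17.1, pandas 2.3.3, numpy 2.4.6 and matplotlib 3.10.9.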

Additional observations from a re-analysis of the deposited data

Results flagged for a closer look

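Of 43 values examined over the 9 mice (levels of chains and differences of pairs), 9 had a mouse whose gap to the nearest other mouse exceeded Dixon's limit for 9 values, a limit that chance passes in about 1 of 20 groups. In 7 of them the mouse was that of tumor 2. Its levels on the log2(TPM + 1) scale were 2.78 for Itgb2 (nearest mouse 4.80), 3.44 for Itgb5 (6.61), 0.39 for Lamb3 (5.64), 3.204 for Itgav (4.91), 1.25 for Itgam (4.37) and 0.99 for Itgax (5.08), and its Lamb3 minus Lamb2 was −3.76 (nearest 0.14). In tumor 8 Lama5 minus Lama4 was −3.74, with tumor 2 as the nearest mouse. In tumor 9 Itgae was 4.68, with 1.80 as the nearest value.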

How the results depend on the processing

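Itgb6 below Itgb8 and Itgb2 above Itgb7 kept their direction and call in all 12 alternatives each. Over fits that left out 1 mouse, differences on the log2 scale ranged from 0.87 to 1.25 for Itgam minus Itgal (call lost in 7 of 9), 1.70 to 2.89 for Itgb1 minus Itgb4 (called without tumor 9), 0.84 to 1.24 for Lama5 minus Lama3 (called without tumor 9), 0.53 to 1.29 for Lamb3 minus Lamb2 (called without tumor 2) and −0.22 to 0.42 for Lama5 minus Lama4, which turned without tumor 2 (0.08), tumor 8 (0.42) or tumor 9 (0.00362). They ranged from 0.23 to 0.59 for Itga6 minus Itga3, 0.43 to 1.26 for Itga2 minus Itga1, −0.81 to −0.18 for Itgb4 minus Itga6 and −0.71 to −0.13 for Itgav minus Itga5, none of them called. A pseudocount of 0.1 ended the call of Itgam minus Itgal (1.03). With each tumor as a unit, which counts tumors of 1 mouse as independent, Itgb1 minus Itgb4 (2.08) was called and Lama5 minus Lama4 (0.11) turned. Without tumors 2 and 8, Itgb4 minus Itga6 (0.21), Itgav minus Itga5 (0.18) and Lama5 minus Lama4 (0.63) turned, and Lamb3 minus Lamb2 (1.46) was called.

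The count of chains rising with macrophage markers was 5. It was 8 with a pseudocount of 0.1, a filter of 5 TPM, the mean of the marker list or each tumor as a unit, 0 without tumors 2 and 8, which are also the 2 mice farthest from the median marker level, and 0 (without tumor 2) to 10 (without tumor 9) over fits that left out 1 mouse. It was 8 without tumor 1 and 9 without tumor 8. Without tumors 2 and 8 the slopes of Lama4 (−0.47) and Itgb5 (−0.17) turned, and Lama4 also lost its call without the mouse of tumors 10, 11 and 12 (1.53). Over all genes, the number rising ranged over the alternatives from 0 to 1129 with macrophage markers, 0 to 140 with fibroblast markers and 0 to 7 with endothelial markers, and the number falling with macrophage markers from 0 to 582. The cause of these changes was not tested beyond the tumors left out. Chains rising or falling with fibroblast or endothelial markers stayed at 0 in all 17 alternatives. Depth is unknown, so no counting error can be given for levels near 0.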
